A study of Mus musculus with 56 samples.

Results

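The data describe what loss of Tet2 did to open chromatin away from promoters in clones of mouse granulocyte-monocyte progenitors (GMPs) grown in stem cell factor (SCF). Of the 56 ATAC-seq libraries, the 48 from SCF clones were used, which are 24 Tet2 knockout (KO) libraries and 24 control libraries of the same clones (1 to 5, 7 to 18 and 23 to 29), chosen by their library names. The remaining 8 libraries come from clones grown in GM-CSF and were not analysed here. For 3 of those 4 clones the sample titles say SCF, against their treatment fields and library names, which were followed. All lines were made from bone marrow of a mouse with floxed Tet2 by transduction with Hoxb8 fused to an oestrogen receptor domain, which keeps progenitors from maturing while beta-estradiol (0.5 uM) is present, and were kept in about 100 ng/ml SCF. Each clone was grown from 1 sorted cell and then divided. The KO line received Cre from an integrase-defective lentivirus and the control line received GFP from the same kind of vector, both at a multiplicity of infection of 200. Both lines of a clone therefore carry the Hoxb8 transgene, the floxed allele and a viral exposure, and they differ by Cre as well as by Tet2. Each library was made from 1000 cells.

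TET2 oxidises methylated cytosine in CpG dinucleotides, which is a step towards removing the mark. In blood cells its loss is known mainly for raising methylation at enhancers, which lie away from promoters and are bound by lineage factors such as RUNX1, GATA2, PU.1 and C/EBP proteins. CpG-dense promoters are mostly unmethylated with or without it. ATAC-seq reports how often a transposase can insert into DNA, so it reads accessibility and neither methylation nor transcription.

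Counts were given for 297361 peaks of 301 bp on mm10. A peak was called distal when its centre lay more than 1 kb from every annotated transcription start site (TSS) and promoter otherwise. By that rule 262960 peaks were distal (88.4%) and 34401 were promoter peaks (11.6%). Of the distal peaks, 145523 were in introns, 96007 were intergenic, 12580 overlapped coding exons and 8850 overlapped non-coding exons. The total count per library ranged from 102302 to 1042973 in controls (median 482619) and from 130049 to 1079233 in KO lines (median 351521.5). That depth is thin for single elements, since a distal peak had a median of 24 counts over all 48 libraries together and a promoter peak had 50. Promoter peaks of 10 GMP marker genes summed to between 207 and 420 CPM (counts scaled to a common library total) in controls and between 285 and 501 CPM in KO lines. Summed markers of T cells, B cells, erythroid cells, macrophages, mast cells and stroma stayed at or below 91.6 CPM in every library. Those lists hold 4 or 5 genes each, so their sums are not on the same footing as the GMP sum. Per gene, the median was 30.4 CPM for the GMP list and between 1.45 and 5.67 CPM for the others. The erythroid genes Hbb-bt and Alas2 and the mast cell gene Mcpt4 were under 1 CPM. The deletion of Tet2 was not checked here. Of 552 library pairs compared within groups, 1 (control lines 4 and 29) differed by no more than sampling noise in a chi-square test over distal tiles (p = 0.0749, chi-square per degree of freedom 1.04), and since these are named as separate clones both were kept.

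The elements that carry the result are shown first, as the first 300 bases of each peak on the plus strand of the mm10 reference, with every CpG in capitals. The first 3 became more accessible in KO lines and are dense in CpG, the fourth is a rising element upstream of Gata2, and the last 3 became less accessible and hold between 3 and 6 CpG each. These are a selection, and CpG content goes with how open a peak is, as given below. A rising element on the X chromosome with 5 CpG, described below, is not printed.
Intergenic element 52.2 kb from the Wnt7b TSS (chr15:85634524-85634824), more accessible in KO: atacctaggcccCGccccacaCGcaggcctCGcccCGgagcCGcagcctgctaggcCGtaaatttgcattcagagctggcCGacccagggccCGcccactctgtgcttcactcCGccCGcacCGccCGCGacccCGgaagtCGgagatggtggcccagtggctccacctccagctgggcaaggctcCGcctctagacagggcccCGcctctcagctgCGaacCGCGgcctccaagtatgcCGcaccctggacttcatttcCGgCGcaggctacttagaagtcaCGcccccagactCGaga
Mnt intron (chr11:74832100-74832400), more accessible in KO: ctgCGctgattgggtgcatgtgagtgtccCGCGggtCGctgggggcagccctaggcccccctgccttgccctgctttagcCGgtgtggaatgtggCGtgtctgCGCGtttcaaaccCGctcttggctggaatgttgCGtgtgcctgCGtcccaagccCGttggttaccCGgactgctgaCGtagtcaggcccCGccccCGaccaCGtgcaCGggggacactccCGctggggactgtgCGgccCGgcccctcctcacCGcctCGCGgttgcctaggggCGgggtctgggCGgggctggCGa
Intron of Gm26801, 2.23 kb from the Zbtb18 TSS (chr1:177441919-177442219), more accessible in KO: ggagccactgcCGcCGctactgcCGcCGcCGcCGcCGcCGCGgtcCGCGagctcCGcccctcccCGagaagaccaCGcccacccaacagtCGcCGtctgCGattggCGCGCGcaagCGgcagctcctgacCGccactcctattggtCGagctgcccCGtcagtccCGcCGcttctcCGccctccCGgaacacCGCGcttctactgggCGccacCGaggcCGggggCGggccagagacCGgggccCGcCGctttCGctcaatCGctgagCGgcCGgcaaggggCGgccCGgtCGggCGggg
Gata2 upstream element (chr6:88116961-88117261), more accessible in KO: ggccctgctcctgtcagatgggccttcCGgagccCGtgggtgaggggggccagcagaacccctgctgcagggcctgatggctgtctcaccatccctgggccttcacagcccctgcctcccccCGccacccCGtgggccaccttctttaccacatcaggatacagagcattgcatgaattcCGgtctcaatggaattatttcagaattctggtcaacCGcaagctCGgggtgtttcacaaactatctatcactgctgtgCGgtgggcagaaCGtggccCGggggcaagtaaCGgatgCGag
Ksr1 intron (chr11:79118990-79119290), less accessible in KO: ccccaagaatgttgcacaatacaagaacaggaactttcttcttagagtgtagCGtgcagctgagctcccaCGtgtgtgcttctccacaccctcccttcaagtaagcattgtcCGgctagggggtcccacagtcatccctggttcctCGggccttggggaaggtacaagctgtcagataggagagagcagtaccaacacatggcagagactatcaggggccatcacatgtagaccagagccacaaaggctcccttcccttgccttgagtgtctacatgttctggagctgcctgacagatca
Intergenic element 25.5 kb from the Trp53i11 TSS (chr2:93161905-93162205), less accessible in KO: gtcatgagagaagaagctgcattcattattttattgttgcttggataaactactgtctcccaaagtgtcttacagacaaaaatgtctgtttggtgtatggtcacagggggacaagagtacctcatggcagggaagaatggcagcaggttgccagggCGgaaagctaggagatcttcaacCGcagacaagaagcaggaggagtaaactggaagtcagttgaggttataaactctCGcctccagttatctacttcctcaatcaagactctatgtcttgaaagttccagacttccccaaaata
Fam222a intron (chr5:114587987-114588287), less accessible in KO: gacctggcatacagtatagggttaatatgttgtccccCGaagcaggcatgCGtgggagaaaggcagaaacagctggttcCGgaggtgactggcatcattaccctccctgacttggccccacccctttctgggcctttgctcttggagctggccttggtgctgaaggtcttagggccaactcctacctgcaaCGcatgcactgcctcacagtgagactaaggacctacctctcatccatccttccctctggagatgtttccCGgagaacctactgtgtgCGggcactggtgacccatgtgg

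The quasi-likelihood test in edgeR, with the clone as a block, was run on single peaks, among them the 15843 distal peaks that held at least 96 counts over the 48 libraries (6.02% of distal peaks). At an adjusted p at or under 0.01, 15 distal peaks rose in KO lines (0.0947% of those tested) and 5 fell (0.0316%), and 1203 reached an unadjusted p under 0.05. With upper-quartile factors 29 rose and 5 fell, and under DESeq2 6 rose and 1 fell. At an adjusted p under 0.05, 36 rose (0.227%) and 23 fell (0.145%). Among 13437 promoter peaks in the same fit, 224 rose (1.67%) and 4 fell (0.0298%). The peaks that rose and those that fell differed in how open they were. The 15 that rose held between 431 and 3213 counts (median 1724), with a median of 35.9 counts per library, and 7 of them held over 20 CpG against 4.95% of all distal peaks tested. The 5 that fell held between 112 and 279 counts, with a median of 4.85 counts per library, and between 3 and 6 CpG. The median over all distal peaks tested was 5 CpG, and 3 of the 15 that rose held under 10 CpG. CpG content goes with how open a peak is. The 244 distal peaks with 960 or more counts, among them 14 of the 15, held a mean of 18.4 CpG. The 15 had a median of 16 CpG, so no excess over equally open peaks was shown. Of the 15, 8 were intronic, 6 were intergenic and 1 was on a coding exon, and 5 were more than 10 kb from any TSS. All 5 that fell were more than 10 kb from any TSS. Among all 15843 distal peaks tested, 8407 were intronic, 6271 were intergenic and 7697 were more than 10 kb from any TSS. With so few peaks called, no difference in position was tested.

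The intergenic element nearest Wnt7b, which encodes a Wnt ligand, was the most strongly called. Its accessibility ran from 51.7 to 232 CPM in controls (median 139) and from 135 to 255 CPM in KO lines (median 191.8). It was higher in the KO line of 22 of 24 clones, although the groups overlapped, and the log2 difference was 0.43 ± 0.07 (SE, n = 24 pairs; edgeR adjusted p = 1.1e-05). It held 25 CpG and 1 match to the ETS word.

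The intronic element of Mnt, which encodes a repressor that shares the partner and E-box sites of MYC, ran from 66.9 to 151.3 CPM in controls (median 103) and from 94.5 to 202 CPM in KO lines (median 132). It was higher in 20 of 24 clones, by 0.39 ± 0.08 on the log2 scale (adjusted p = 0.000432). The element 2.23 kb from Zbtb18, which encodes a zinc finger repressor, ran from 60.3 to 150 CPM in controls (median 99.3) and from 103 to 172 CPM in KO lines (median 134). It was also higher in 20 of 24 clones, by 0.38 ± 0.08 (adjusted p = 0.000522), and with 45 CpG it is the densest of the 3. It lies 1.2 kb from the TSS of the non-coding Gm26801, so it sits just past the limit that made it distal.

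An intergenic element on the X chromosome (chrX:75673970-75674270), 95.9 kb from Rab39b, holds 5 CpG and was higher in 16 of 24 clones, with medians of 52.5 CPM in controls and 66.7 CPM in KO lines (0.44 ± 0.09, adjusted p = 0.00109). With the GC content of each library's distal counts as a covariate its difference was 0.28 (adjusted p = 0.334). With the promoter share of each library as a covariate it was 0.31 (adjusted p = 0.126). An element in Clec11a (chr7:44304871-44305171), which encodes a growth factor for blood progenitors, held 21 CpG and was higher in 15 of 24 clones, with medians of 117 and 146 CPM (0.35 ± 0.08, adjusted p = 0.00136). The remaining 10 that rose included elements in introns of Acaca, Fstl3, Ano9 and Unc13a, 1 on a coding exon 6.73 kb from the Rps28 TSS, and 1 in an intergenic stretch 57.5 kb from Arid1a. The largest log2 difference among the 15 was 0.64 ± 0.15, at a peak with 1 CpG that is 599 kb from the nearest protein-coding TSS, Negr1 (adjusted p = 0.00343). It ran from 0 to 30.3 CPM in controls and from 3.87 to 55.1 CPM in KO lines, and this 1 peak is the only one of the 15 with fewer than 960 counts.

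The 5 peaks that fell were weak, and the levels of both groups reached 0. In the Ksr1 intron (Ksr1 encodes a scaffold of the RAS to MAP kinase pathway) control lines ran from 0 to 60.3 CPM (median 17.0) and KO lines from 0 to 17.5 CPM (median 8.31). The KO line was lower in 19 of 24 clones, by 0.91 on the log2 scale (-0.91 ± 0.20, adjusted p = 0.00123). The call was lost with the GC covariate (-0.74, adjusted p = 0.128), with the promoter share (-0.73, adjusted p = 0.0721) and in clones 1 to 18 (-0.82, adjusted p = 0.0541). This stretch holds a match to a C/EBP word, a KLF word and the E-box of MYC.

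Near Trp53i11 the median was 14.7 CPM in controls (0 to 39.1) and 5.83 CPM in KO lines (0 to 19.3), and the KO line was lower in 20 of 24 clones (-0.997 ± 0.22, adjusted p = 0.00129). This stretch holds 1 match each to the GATA, PU.1 and MYB words. In the Fam222a intron the median was 10.5 CPM in controls (0 to 27.9) and 3.23 CPM in KO lines (0 to 10.6), lower in 21 of 24 clones (-1.28 ± 0.28, adjusted p = 0.00156). The other two were an intronic element 81.4 kb from Uggt1 (chr1:36162727-36163027, -0.91 ± 0.22) with 1 RUNX and 1 PU.1 match, and an intergenic element on chromosome 17 (chr17:64820899-64821199, -1.31 ± 0.33) with 1 RUNX, 1 AP-1 and 1 MYB match, at 0 in 3 control and 10 KO libraries. Each was lower in 20 of 24 clones, and in clones 1 to 18 alone neither passed (adjusted p = 0.178 and 0.0593).

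**Figure D1:**
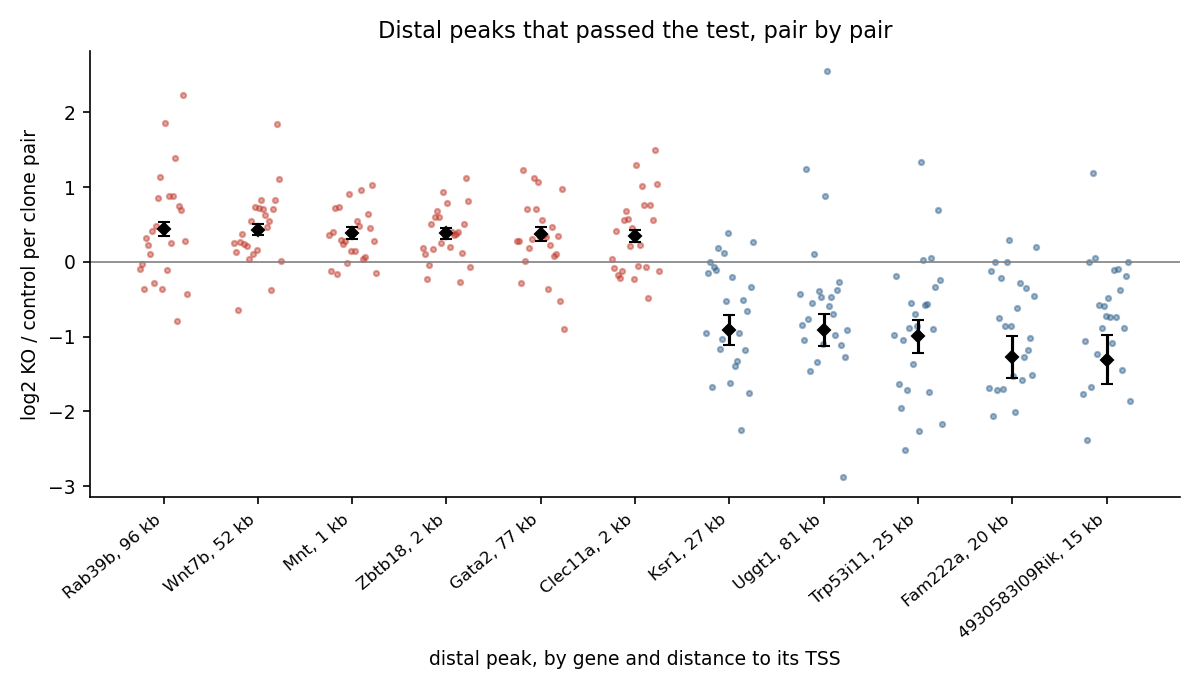
The log2 ratio of KO to control in each of 24 clones (points, with a prior of 2 counts) for the named distal peaks, labelled by protein-coding gene and distance to its TSS; black diamonds and bars are the edgeR estimate ± SE. The rising elements (red) lie at 0.35 to 0.44 with some clones below 0, and the falling ones (blue) lie at -0.91 to -1.31 with a wider spread. The element labelled Gata2 lies nearer to the TSS of Rpn1.

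One of the 15 that rose, singled out after its values were seen, lies 76.8 kb upstream of the Gata2 TSS. Its nearest protein-coding TSS is that of Rpn1, at 32.6 kb, and which gene it serves was not tested. GATA2 is a zinc finger factor that stem cells and early progenitors need, and an enhancer of Gata2 used by myeloid progenitors is known at about that distance. The element (chr6:88116961-88117261) is intergenic, holds 12 CpG and has 1 match each to the RUNX, MYB and TAL1 E-box words. It ran from 24.0 to 117 CPM in controls (median 56.3) and from 42.4 to 190 CPM in KO lines (median 68.3). The KO line was higher in 20 of 24 clones, by 0.37 ± 0.09 (adjusted p = 0.00741). The difference was 0.45 in clones 1 to 18 (edgeR adjusted p = 0.00944) and 0.18 in clones 23 to 29 (adjusted p = 0.999). The call was lost with the GC covariate (0.31, adjusted p = 0.189) and with the promoter share (0.33, adjusted p = 0.0708). The element did not carry the whole locus with it. The sum of the 43 distal peaks within 50 kb of the Gata2 TSS, a window that does not reach this element, differed by -0.01 ± 0.08, and 13 tested distal peaks within 100 kb ran from -0.43 to 0.37. The Gata2 promoter differed by -0.18 ± 0.12 (adjusted p = 0.389).

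Since peaks that rose were strong and peaks that fell were weak, all peaks were divided by their count over the 48 libraries, KO and control together, and the counts in each class, scaled by the TMM factors, were compared within clones. This division was made after the single peaks had been seen, on the same counts. The distal class with 960 or more counts holds 14 of the 15 peaks that rose. The p-values of the classes are therefore no independent evidence for the pattern. The 244 distal peaks with 960 or more counts took 1.58% ± 0.23 of the counts in controls and 1.73% ± 0.25 in KO lines (SD, n = 24). With TMM scaling their counts were higher in the KO line of 18 of 24 clones, by 0.14 ± 0.04 on the log2 scale (SE; permutation test by sign flips, two-sided, adjusted over 12 classes p = 0.0082). Scaled by the total alone, that is as a share of counts, the difference was 0.14 ± 0.06 and did not pass (adjusted permutation p = 0.0849). The 9526 distal peaks with 96 to 191 counts went the other way. They took 6.25% ± 0.79 in controls and 5.72% ± 0.77 in KO lines, and were lower in all but 5 of 24 clones (-0.12 ± 0.03, permutation p = 0.0028 adjusted; 0.0158 by permutation when scaled by the total alone). Between them, the 4944 peaks with 192 to 479 counts differed by -0.05 ± 0.02 and the 1129 with 480 to 959 counts by 0.04 ± 0.03, and neither passed. Without clones 3, 4, 13 and 27 the class with 192 to 479 counts did pass (-0.06, adjusted permutation p = 0.0276). Peaks with fewer than 96 counts, which are most of the set, differed by -0.07 ± 0.08 (24 to 95 counts) and -0.03 ± 0.12 (under 24 counts). The SD of these differences over clones reached 0.59, so a shift of the size seen above would not have been detectable there. In clones 1 to 18 alone the distal classes with 960 or more and 96 to 191 counts passed (adjusted permutation p = 0.0493 and 0.0234). In clones 23 to 29 alone no class, distal or promoter, passed (lowest adjusted permutation p = 0.328).

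The change in the distal class with 960 or more counts minus that in the class with 96 to 191 counts does not depend on the scaling. These classes were picked after their values were seen, so the contrast is a description with no test. It was 0.26 (SD 0.27) and positive in 18 of 24 clones. It was 0.23 in the 17 clones numbered 1 to 18, 0.34 in the 7 clones 23 to 29, and 0.28 without clones 3, 4, 13 and 27, which include the shallowest libraries. The clones varied widely. The change in strong distal peaks ran from -0.30 in clone 3 to 0.67 in clone 27, both of which include a shallow library.

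Promoter peaks were divided by the same counts. The 3091 promoter peaks with 960 or more counts took 22.3% of counts in controls and 24.5% in KO lines. With TMM scaling they were higher by 0.14 ± 0.04, in 18 of 24 clones (permutation p = 0.0082 adjusted), while scaled by the total alone the difference did not pass (0.13 ± 0.06, 17 of 24 clones, adjusted permutation p = 0.0849). Those with 96 to 191 counts fell by 0.11 (-0.11 ± 0.03, p = 0.0082 by permutation, adjusted). Promoter peaks with 192 to 479 counts fell too (-0.06 ± 0.02, adjusted permutation p = 0.019), but not when scaled by the total alone (adjusted permutation p = 0.174). In clones 1 to 18 alone the promoter classes with 960 or more and 96 to 191 counts did not pass (adjusted permutation p = 0.0564 each). At 960 or more counts the distal change minus the promoter change was 0.0006, with a 95% interval from -0.0161 to 0.0172 (12 of 24 clones positive, permutation p = 0.946). At 480 to 959 counts the distal change was the higher of the pair by 0.03 (95% interval 0.0145 to 0.05, in 18 of 24 clones, permutation p = 0.0122 adjusted over 6 classes), and at the other 4 levels the difference did not pass. Without the 4 shallow clones the 192 to 479 class passed as well (0.03, adjusted permutation p = 0.0131). Peaks with 960 or more counts held a mean of 18.4 CpG when distal and 28.0 when at promoters. These shares are of a fixed total, so a gain in strong peaks and a loss in weak ones cannot be told apart from a change in how much signal each library holds above its background.

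**Figure D2:**
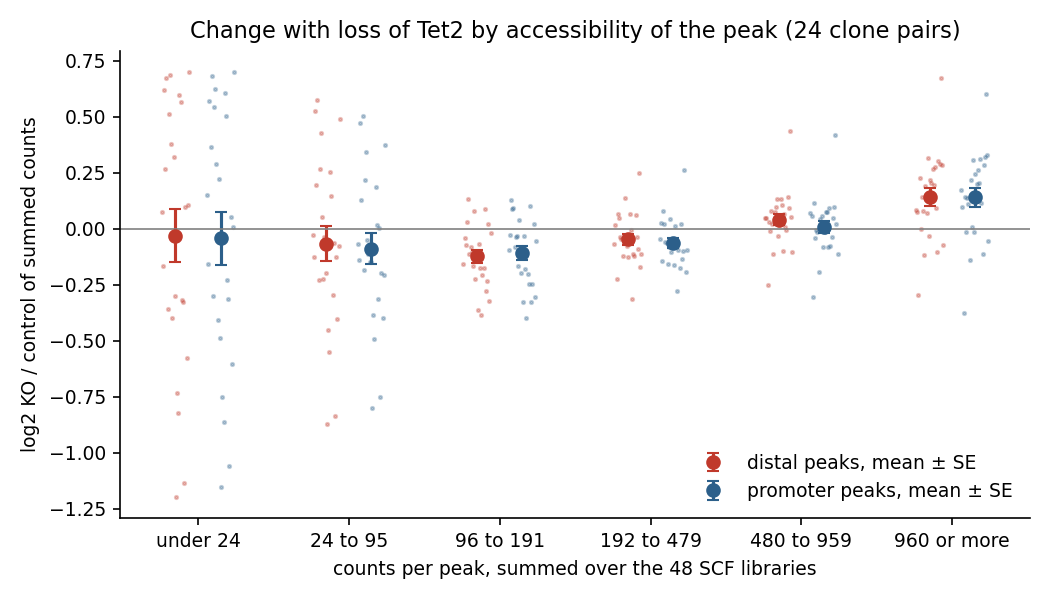
Log2 ratio of KO to control of the summed, TMM-scaled counts by class of counts per peak, for distal (red) and promoter (blue) peaks, with 1 small point per clone and the mean ± SE over 24 clones. Both kinds of peak run from -0.12 and -0.11 at 96 to 191 counts to 0.14 at 960 or more.

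**Figure D3:**
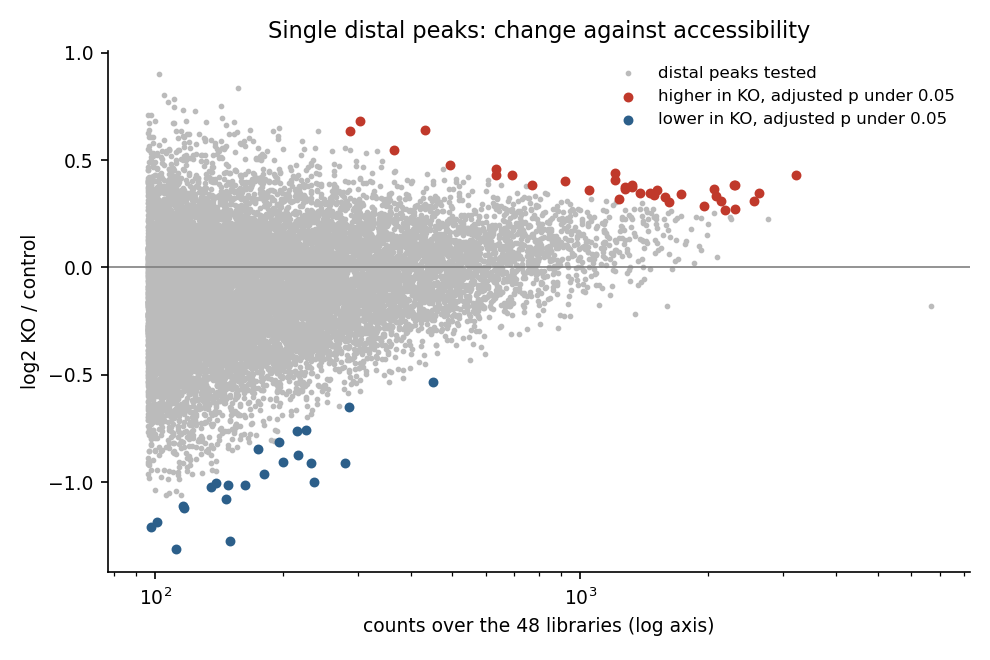
The edgeR log2 difference of the 15843 tested distal peaks against their counts over the 48 libraries (log axis), with the 36 higher (red) and 23 lower (blue) at an adjusted p under 0.05 marked. Those that rose have a median of 1355 counts and those that fell a median of 175 counts.

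The same counts taken peak by peak gave the same order, which is a second view of those counts and no separate evidence. The median edgeR difference of distal peaks was -0.13 at 96 to 191 counts (9526 peaks, median SE 0.29), -0.06 at 192 to 479, 0.05 at 480 to 959 and 0.14 at 960 or more (244 peaks, median SE 0.09), and the class with 960 or more counts held 14 of the 15 that rose. Their log2 differences of at least 0.31 are therefore to be read against a class median of 0.14. With the GC covariate that class median was 0.095 and no distal peak passed at 0.01 in either direction. At the looser limit of 0.05, 4 of the 15 and 4 of the 5 were then still called. With the promoter share of each library as a covariate 3 rose and 1 fell at 0.01. In clones 23 to 29 alone no peak passed. All 15 kept their direction there, which is no separate evidence since these clones were part of the fit that chose them. By CpG count, the median distal difference was -0.07 at 0 to 2 CpG, -0.08 at 3 to 5, -0.10 at 6 to 10, -0.08 at 11 to 20 and -0.03 above 20, and peaks with more CpG are also more open. By share of all open distal counts, which strong peaks weigh most, peaks with 11 to 20 CpG gained 0.19 percentage points (higher in 19 of 24 clones) and those above 20 gained 0.56 (17 of 24), while those with 6 to 10 CpG lost (-0.35, higher in 3 of 24), given with no test.

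To ask whether broad domains moved, the distal peaks within 50 kb of each protein-coding TSS were summed. At least 1 such peak was found for 19817 of 21755 genes (median 16), and neighbouring genes share peaks. Of the 11753 windows that passed the filter on counts (median 23.4 counts per library), none passed at an adjusted p under 0.05 in edgeR (background 0% higher and 0% lower, lowest adjusted p = 0.503), while 775 reached an unadjusted p under 0.05, of which 93 were higher and 682 lower. The differences ran from -0.52 to 0.46 with a median of -0.06, and 8573 windows were below 0 and 3180 above. The lean towards lower values rests on the scaling, since the median was -0.0009 with TMM factors computed from the windows themselves and 0.06 with the GC covariate. DESeq2 called 29 higher and none lower. The middle 90% lay between -0.24 and 0.12, around the median SE of 0.12 of a single window. Tiles of 100 kb cut without regard to genes gave the same picture, with none of 6854 called (lowest adjusted p = 0.351, 419 at an unadjusted p under 0.05, DESeq2 11 higher). The median window difference was -0.02 in clones 1 to 18 and -0.18 in clones 23 to 29, but a term for the difference between these clone numbers passed at none of 11753 windows (lowest adjusted p = 0.763, with 734 at an unadjusted p under 0.05).

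By contrast, 675 of 7459 promoter windows, the summed peaks within 1 kb of a gene's TSS, were higher (9.05%) and 43 were lower (0.576%) at similar depth, a median of 20.7 counts per library. With TMM factors from the promoter table the counts were 389 and 106. When promoter and distal peaks within 50 kb were summed together, 418 of 15697 windows were higher (2.66%) and 66 lower (0.42%). Across the 5475 genes tested for both promoter and distal window, Pearson's r between the log2 differences was 0.005 and Spearman's rho 0.009, given as a description since genes are not independent replicates. The SD of the distal differences over genes (0.11) was no larger than their median SE (0.11), so these windows could not show a relation at this depth. The distal windows of the 503 genes whose promoter rose had a median of -0.062, those of the 33 whose promoter fell -0.058 and those of the other 4939 genes -0.065.

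**Figure D4:**
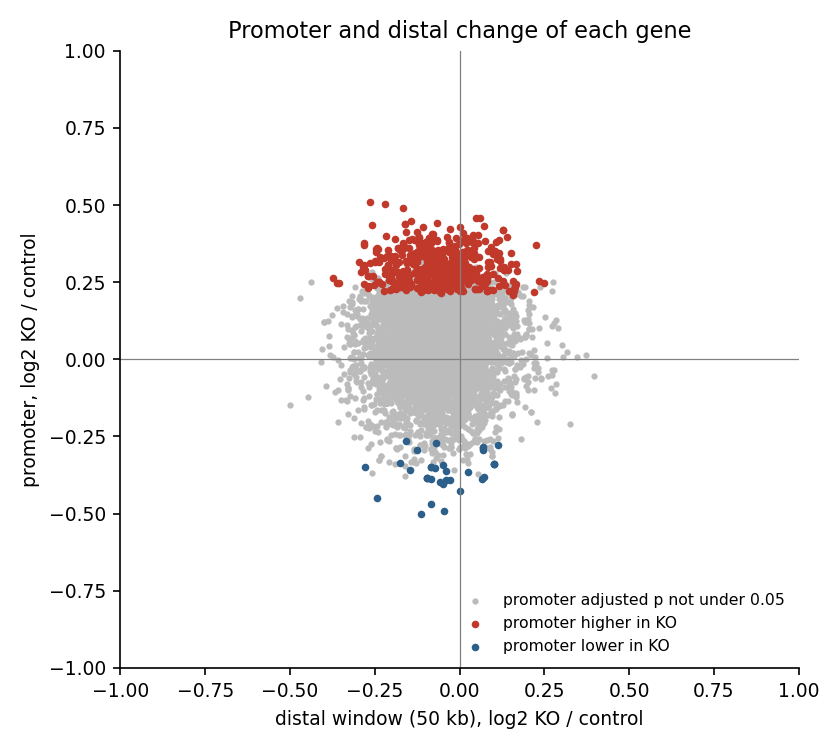
The log2 difference of the promoter (vertical axis) against that of the distal 50 kb window (horizontal axis) for the 5475 genes tested for both, with genes coloured by the promoter call. Pearson's r is 0.005, the distal values spread no more than their own error, and the genes whose promoter rose are centred at -0.062 on the distal axis.

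The difference between promoter and distal window was tested gene by gene in 1 fit. It was positive for 109 of 5475 genes (1.99%) and negative for 1 (0.0183%), with a median of 0.12 over all genes, and the promoter alone had risen in 97 of the 109. Each gene was tested against 0 and not against this median, so a shift shared by all genes enters every call. Nor were promoter and distal peaks matched for openness in the fit. A promoter peak had a median of 50 counts over the 48 libraries and a distal peak 24. In clones 1 to 18 alone 9 genes passed and none was negative, with Clic4 and Ncl among the 9 (adjusted p = 0.0141 each) and Csf2ra and Sp1 not (adjusted p = 0.17 each). Clic4, which encodes a chloride intracellular channel protein, stood first. Its promoter ran from 63.5 to 187 CPM in controls (median 101) and from 91.8 to 184 CPM in KO lines (median 150.6), higher in 22 of 24 clones. Its 40 distal peaks summed to a median of 92.2 CPM in controls and 70.9 CPM in KO lines and were higher in 6 of 24. The promoter difference of 0.51 and the distal difference of -0.27 were 0.79 ± 0.13 apart (edgeR adjusted p = 2.19e-05).

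The GM-CSF receptor alpha chain Csf2ra had medians of 105 and 132 CPM at the promoter and 80.4 and 69.9 CPM in its 11 distal peaks (difference 0.62 ± 0.13, adjusted p = 0.00284). Sp1, a factor that binds GC boxes, differed by 0.62 ± 0.12 and Ncl, which encodes nucleolin, by 0.59 ± 0.13. In all of these the distal window was not called on its own, so the test says that promoter and distal peaks differed and not that the distal peaks fell. Among genes of the lists, Stat3 (0.48 ± 0.11), Pim1 (0.46 ± 0.10), Lyl1 (0.37 ± 0.10) and Cebpa (0.36 ± 0.10) passed too. At Cebpa, the factor that commits progenitors to the granulocyte and monocyte lineages, the promoter was higher in 20 of 24 clones (0.40 ± 0.08, adjusted p = 0.000115), while its 39 distal peaks differed by 0.04 ± 0.06, with medians of 175 and 186 CPM. The gene on the negative side, 1600002K03Rik, had a lower promoter (-0.38 ± 0.13, adjusted p = 0.0325) and a distal difference of 0.07 ± 0.05.

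Most peaks in a 50 kb window hold a few counts, and the median log2 difference depends on how open a peak is. The windows were therefore summed again, after the first result was seen, over the distal peaks with at least 96 counts. Of 4836 such windows, 34 were higher (0.703%) and 30 lower (0.62%) at an adjusted p under 0.05. The balance between rises and falls rests on the scaling, with 59 and 15 under upper-quartile factors, 89 and 15 under TMM factors from the window table and 59 and 1 under DESeq2. Because neighbours share peaks, the 34 and 30 form 11 separate groups of windows that rose and 17 that fell. With the promoter share of each library as a covariate none passed in either direction (lowest adjusted p = 0.0547). All 34 and all 30 kept their sign, which is no separate evidence since the same counts chose them. With the GC covariate 6 higher and 2 lower windows passed, none of them among the 34 that rose (lowest adjusted p of those 0.0625).

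The groups that rose mostly rest on 1 strong peak each. The window of Zbtb18 took 90.2% of its counts from the element printed above and rose from a median of 111 to 143 CPM, in 21 of 24 clones (0.32 ± 0.07, adjusted p = 0.00183). A single intronic element of Acaca (chr11:84179367-84179667), which encodes the first enzyme of fatty acid synthesis, made up the windows of Acaca, Tada2a and Gm11437, at 57.8 to 142 CPM in controls (median 87.0) and 65.0 to 166 CPM in KO lines (median 117; 0.36 ± 0.07). The windows of Kank3, Angptl4, Rps28, Cd320 and Ndufa7 share the coding exon element (0.41 ± 0.09), and that of Mnt took 61.4% of its counts from its intronic element (0.24 ± 0.06). The Acp4, Fstl3 and Ptdss2 windows rose by 0.29, 0.28 and 0.27.

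The windows that fell drew on several peaks. At Egfl7 and Notch1, which lie side by side and encode a regulator of Notch signalling and a Notch receptor, the 9 open distal peaks of the Egfl7 window summed to a median of 77.7 CPM in controls (53.1 to 110) and 60.6 CPM in KO lines (27.5 to 93.7). The KO line was lower in 18 of 24 clones (-0.36 ± 0.09, adjusted p = 0.0102), and the peak with the smallest p held only 9.46% of the counts. The Gnai2 window, whose gene encodes an inhibitory G protein subunit, fell from a median of 141 to 113 CPM over 7 peaks, in 19 of 24 clones (-0.28 ± 0.07, adjusted p = 0.0129).

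Some windows below the median accessibility, named after their values were seen, fell further. The Evi2 and Evi2a window, within the Nf1 locus, fell over 3 peaks from a median of 35.5 to 18.6 CPM, in 21 of 24 clones (-0.57 ± 0.13, adjusted p = 0.006). The window of Mpeg1, which encodes the pore-forming perforin-2 of phagocytes, fell over 4 peaks from 32.5 to 22.9 CPM (-0.54 ± 0.13, adjusted p = 0.0112). Fam49b (-0.36 ± 0.10), Itpr3 (-0.35 ± 0.10), an IP3 receptor, and Nhp2 (-0.29 ± 0.08) were lower in 21, 19 and 21 of 24 clones. Among the 30 windows that fell, 17 belonged to genes whose promoter was tested. Of these promoters 2 rose, Abhd11 (promoter 0.33, open distal peaks -0.43) and Plekhf2 (0.31 and -0.38), and none fell. Among the windows that rose, 13 had a tested promoter, of which 1 rose and none fell. With 9.05% of all promoters higher and 0.576% lower, these counts are near the background.

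Genes were also read by list, without a test of promoter against distal change for any list. Over 20 lists no gene was called in either kind of distal window, where 0% of all and 0.703% and 0.62% of open windows passed, and list medians of the distal window ran from -0.147 (HoxA and HoxB clusters, 14 genes) to -0.006, against -0.064 over all genes tested. Of 18 tested genes of glycolysis and the hypoxia response, 7 promoters rose (Slc2a1, Aldoa, Bnip3, Pkm, Hk1, Hif1a and Pgk1) with a median of 0.23 against 0.055 over all genes, while their 17 distal windows had a median of -0.04 and none passed. Of the cytokine receptor and STAT genes, 4 of 16 promoters rose (Stat3, Il3ra, Pim1 and Csf2ra), and the distal median was -0.07 over 21 genes and -0.17 over the 15 with open peaks, against -0.05 over all open windows. Of 25 promoters of myeloid transcription factors, 4 rose (Cebpa, Klf13, Klf2 and Bach1), and their 31 distal windows had a median of -0.05. Cell cycle genes had 3 of 17 promoters higher (Pcna, Ccne1 and Cdk4), DNA methylation genes 2 of 12 (Mbd3 and Mbd4) and housekeeping genes 3 of 13 (Eef1a1, Ywhaz and Pgk1). These shares stand beside the 9.05% of all promoters, which were not matched to the lists for openness. Of the 224 single promoter peaks that rose, 218 held 960 or more counts. Whether any list exceeds equally open promoters was not tested.

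The distal windows of the genes that define these clones and their fates, among them Sox4, Meis1, Runx1, Runx3, Gfi1b, Irf8, Klf4, Mpo, Cebpe, Csf1r and S100a8, all missed the threshold, with values between -0.20 at Irf8 and 0.08 at Tet2 itself.

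Distal elements differ by the factors whose sites they hold, so each motif was asked whether counts in the distal peaks that hold it departed from those in distal peaks of equal GC content and accessibility. This measure is in percent of the expected counts, 24 motifs were searched on both strands, and a match is a word in the sequence and not a bound site. Peaks with the RUNX word TGTGGT (29.5% of distal peaks) went from -0.47% ± 1.11 in controls to 0.54% ± 1.36 in KO lines (SD, n = 24), higher in the KO line of all 24 clones (permutation p = 0.00024, adjusted over 24 motifs). The difference grew with the number of words. It was -0.50% in the 185300 peaks with no match, higher in 0 of 24 clones, 0.57% with 1 match (18 of 24), 2.21% with 2 matches (12067 peaks, 21 of 24) and 4.21% with 3 or more (1907 peaks, 21 of 24). These classes divide 1 set of counts, so a gain in one is a loss in another.

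Peaks with the GATA word AGATAA (13.2%) rose by 1.21% (18 of 24 clones, permutation p = 0.004 adjusted). Among the 15843 distal peaks with at least 96 counts the GATA difference was 2.65% (21 of 24) and the RUNX difference 1.10% (21 of 24). KLF, HLF and NFIL3, AP-1, HOX and MEIS, and SOX motifs also rose, by 0.34% to 2.42%, although SOX turned in direction with no background (-0.0188%) and in clones 23 to 29 (-0.087%). Without the background of matched peaks 3 of the 24 motifs passed, and RUNX and GATA were not among them. On the other side, peaks with STAT words fell by 1.66% (lower in 19 of 24 clones) and those with C/EBP words by 1.70% (18 of 24), and CTCF (3.36%), IRF (2.54%) and MYB (0.44%) peaks fell as well. PU.1 and the TAL1 E-box did not pass.

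Whether these shifts belong to distal peaks was tested by the same measure in promoter peaks. The distal minus promoter difference passed for only 2 of 24 motifs, the MYC E-box (1.33%, permutation p = 0.0034 adjusted) and MEF2 (8.05%, adjusted permutation p = 0.0056), neither of which had passed in distal peaks alone. For RUNX it was 0.16% (adjusted permutation p = 0.603) and for GATA 0.06% (adjusted permutation p = 0.949). No motif passed in clones 23 to 29 alone, where RUNX differed by 1.13% and was higher in 7 of 7 clones (exact permutation p = 0.0156, adjusted p = 0.188).

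**Figure D5:**
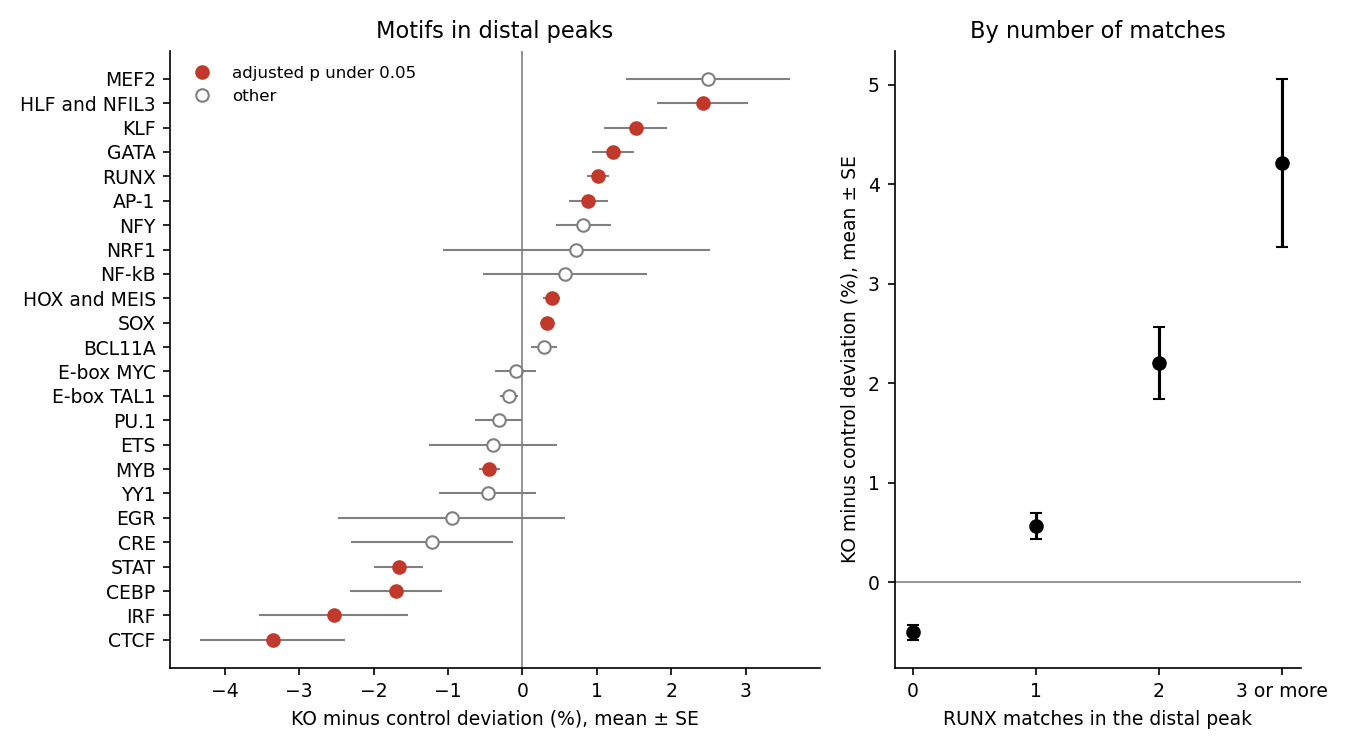
KO minus control motif deviation (percent of expected counts, error bars SE over 24 clones) for the 24 motifs in distal peaks, and, at right, for distal peaks by their number of RUNX matches. RUNX (1.01%, 24 of 24 clones) and GATA (1.21%) lie above 0, and STAT (-1.66%), C/EBP (-1.70%) and CTCF (-3.36%) lie below.

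Taken by position alone, the share of counts did not pass for any class of distance. Promoter peaks took 46.4% ± 4.1 of counts in controls and 48.1% ± 5.3 in KO lines, higher in 16 of 24 clones (difference 1.69 percentage points, SD 5.94, permutation p = 0.365 adjusted over 9 classes). Distal peaks at 1 to 10 kb took 25.5% and 24.6%, those at 10 to 50 kb 23.2% and 22.5%, and those beyond 100 kb 1.19% and 1.16%, with an adjusted permutation p of 0.365 or above in each.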

How the data were processed

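The authors deposited raw counts of ATAC-seq reads per peak and library, with no normalization. The submitters' processing notes name mm10, Bowtie2, SAMtools and Picard. The peak set joined summits of the study's single-cell ATAC-seq with ImmGen peaks. Tool versions, and whether a count is a fragment or an insertion, are not given in the sources. All 56 columns were matched to samples by library name.

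Peaks were placed with GENCODE vM21 on GRCm38. Peaks, windows and tiles were tested with edgeR 4.0.16 (R 4.3.3, limma 3.58.1): quasi-likelihood, TMM factors, the clone as a block and Benjamini-Hochberg adjustment. The limit was an adjusted p under 0.05 for windows and tiles and at or under 0.01 for single peaks. TMM factors came from the peaks, distal and promoter, with at least 96 counts over the 48 libraries. Windows and tiles passed filterByExpr (minimum count 10). The difference between promoter and distal window came from an interaction fit of both tables. The fits were tested on simulated data. DESeq2 1.42.0 was an alternative. CPM are counts scaled to a common total after the TMM factors. Shares and motif deviations (20 by 20 strata of accessibility and GC content) were tested by two-sided sign flips over clones, with 100000 draws, or exactly with 7 clones. The software was Python 3.11.15 with matplotlib 3.10.9, pandas 2.3.3, scipy 1.17.1 and numpy 2.4.6.

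The lines of a clone come from 1 cell, which is the source of the pairing. The correlation of their deviations from the group means ran from -0.04 to 0.48 (median 0.086) and exceeded 0.1 in 9 of 24 clones. Between lines of different clones the median was -0.002. In 9 of 24 clones the control line was most like the KO line of its own clone, so the pairing is weak in these counts. Clones are separate lines by their labels, and p-values rest on the variation among them. Intervals come from the spread over clones.

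The comparison, the gene lists and the tests were chosen with earlier results of these data known. Named peaks are the 5 with the smallest p in each direction, named windows are the largest of those called at or above the median accessibility, named promoter minus distal differences are from the 5 largest (1 is not reported here), and genes of the lists and those the study discusses are named where they passed or for their level. The motif set and gene lists hold 24 motifs and 20 lists. Alternatives changed the scaling, the tool, the block, the covariates, the clones used, the filter, the window and the definition of distal.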

Additional observations from a re-analysis of the deposited data

How the results depend on the processing

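Counts below are given as higher and lower in KO lines. Distal 50 kb windows, with 0 and 0, gave 29 higher under DESeq2, 57 with the GC covariate, 11 with TMM factors from the tested table, 8 with the promoter share as a covariate and 34 and 30 over open peaks, and 0 higher under every other alternative tried. Distal tiles, with 0 and 0, gave 11, 29, 9 and 11 higher under the same 4 settings. Single distal peaks (15 and 5) gave 29 higher with upper-quartile factors, 6 and 1 under DESeq2, 0 and 0 with the GC covariate, 3 and 1 with the promoter share, 7 higher with no replicate block, 8 and 1 in clones 1 to 18, 0 and 0 in clones 23 to 29, 2 lower without clones 5, 13 and 16, and 25 and 0 with filterByExpr. All single peaks (239 and 9) gave 450 higher with upper-quartile factors, 1 lower under DESeq2, 19 and 1 with the GC covariate, 66 and 2 with the promoter share, 86 and 3 in clones 1 to 18, 0 and 0 in clones 23 to 29 and 2 lower with filterByExpr.

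Open distal windows and their alternatives were chosen after seeing the data. They (34 and 30) gave 59 and 15 with upper-quartile factors, 89 and 15 with TMM from the tested table, 59 and 1 under DESeq2, 6 and 2 with no replicate block (the fit without the clone pairing), 6 and 2 with the GC covariate, 0 and 0 with the promoter share, 16 and 8 in clones 1 to 18, 0 and 0 in clones 23 to 29, 56 and 53 without shallow clones, and 52 lower with no filter. Promoter windows (675 and 43) gave 1176 higher with upper-quartile factors, 389 and 106 with TMM from the tested table, 279 and 3 under DESeq2, 315 and 24 with the promoter share, 228 and 19 with the GC covariate, 391 and 16 in clones 1 to 18 and 0 and 0 in clones 23 to 29. Full windows (418 and 66) gave 716 and 13, 646 and 161, 22 lower, 33 lower, 19 lower, 222 and 3, and 0 and 0 under these same 7 settings, and 183 and 15 with no replicate block. Promoter minus distal (109 and 1) gave 240 and 2 with 100 kb windows and 9 and 0 in clones 1 to 18.

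The number of distal motifs that passed (12) was 3 with no background and 0 in clones 23 to 29, where SOX reversed to -0.087%, as it did with no background (-0.0188%). The contrast of distal classes (0.26) was 0.34 in clones 23 to 29, where no accessibility class passed by permutation. The named distal peaks kept their direction wherever they were tested (over all alternatives, the call held 74 times and was lost 45 times). The alternatives share counts with the fit that chose these peaks, so a kept direction is no separate evidence. The cause of these changes was not tested, but fewer clones were used in some. Thin depth limits single distal peaks with under 96 counts, which the main fit did not test. With a limit of 48 counts over the 48 libraries, 38033 distal peaks were tested, and 11 were higher and 4 lower.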
